A study of Homo sapiens with 74 samples.

Results

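This account concerns the SMARCD1 knockout clone of the human cell line HAP1 and its wild-type control, profiled by ATAC-seq. ATAC-seq uses a transposase that inserts sequencing adapters into accessible DNA, so that the reads over a region measure how open its chromatin is. The comparison holds 4 of the 74 samples of the series, chosen by their labels alone. They are replicates 1 and 2 of the SMARCD1 knockout (clone 6-2478) and replicates 1 and 2 of wild-type HAP1 (C631). HAP1 is a near-haploid line derived from a chronic myeloid leukaemia, in which disruption of a single gene copy is enough to remove its product. Both SMARCD1 libraries come from 1 clone, so loss of the gene and other changes that this clone carries cannot be told apart. All libraries used here were made from HAP1 cells, and by their labels the other clones differ in the gene removed. Knockdown libraries, used at the end, are named there. The labels do not tell whether the replicates are separate cultures, and the p-values cover only the spread between libraries, which may be technical.

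SMARCD1 encodes BAF60A, a subunit of the BAF (SWI/SNF) complexes, which slide and evict nucleosomes with the energy of ATP hydrolysed by SMARCA4 or SMARCA2. The SMARCD subunit sits in the core of the complex beside SMARCC1 and SMARCC2, and each complex takes a single one of the paralogs SMARCD1, SMARCD2 and SMARCD3. ARID1A and ARID1B mark the canonical BAF form, ARID2, PBRM1, BRD7 and PHF10 the PBAF form, and BRD9 the non-canonical form. DPF1, DPF2 and DPF3 are alternative finger proteins of the canonical form, and BCL11A, BCL11B, BCL7A and BCL7B are further associated subunits.

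Total counts were 9948164 and 10543558 reads in the SMARCD1 libraries, and 10286301 and 7933613 in wild type, within the range of 7855389 to 12422345 over the 48 libraries of the same set. Counts of the replicates correlated across regions at r = 0.979 in the SMARCD1 knockout and 0.977 in wild type. Of 145536 regions, 145532 passed the filter on low counts. Accessibility is given in CPM, reads per 1000000 reads after scaling of the libraries, and the median region had 3.41 CPM over all libraries. The regions carry no gene names in the files, and an annotation of their build, hg19, was not used here. They are therefore named by coordinates, and the SMARCD1 locus itself was not analysed as a check of the labels.

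The SMARCD1 clone differed from wild type at a small share of regions, in both directions. Of 145532 regions, 2297 (1.58%) differed between SMARCD1 knockout and wild type at an adjusted p of 0.05, and such regions are said to be called. Of these, 1185 were lower (0.814% of those tested) and 1112 were higher (0.764%) in the SMARCD1 knockout. The lower regions made up 51.6% of the calls, a share that moved with the processing. On the authors' normalized values, where the median region was shifted up by 0.106 on the log2 scale in the SMARCD1 knockout, 30.7% of 3924 calls were lower. A change of at least 2-fold was seen at 1815 of the called regions (1.25% of those tested). The count rests on all 4 libraries: it was 1405 without SMARCD1 replicate 1 and 759 without SMARCD1 replicate 2, and leaving out wild-type replicate 1 gave 810 and wild-type replicate 2 gave 1026.

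The lower regions had a median of 2.92 and 2.89 CPM in the SMARCD1 libraries, against 8.15 and 7.53 CPM in the wild-type libraries. The higher regions had a median of 10.5 and 12.1 CPM in the SMARCD1 libraries, against 5.0 and 4.66 CPM in wild type. The median region of all tested lay at 3.51 and 3.38 CPM in the SMARCD1 libraries and 3.4 and 3.59 CPM in wild type. The median log2 fold change was −1.37 over the lower and 1.19 over the higher regions, which are descriptions, since the regions were called on these values. Called regions tended to be wide and accessible: 48.9% of the lower and 46.9% of the higher ones fell in the top 25% by mean accessibility, and their median widths were 776 and 775 base pairs, against 622 over all regions. Another region called in the same direction was found within 500 kb of 654 of the 1185 lower regions (55.2%), whereas 26.8% of all tested regions had a lower region that near. For the higher regions it was 547 of 1112 (49.2%), and 30.9% of all tested regions had a higher region that near.

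**Figure D1:**
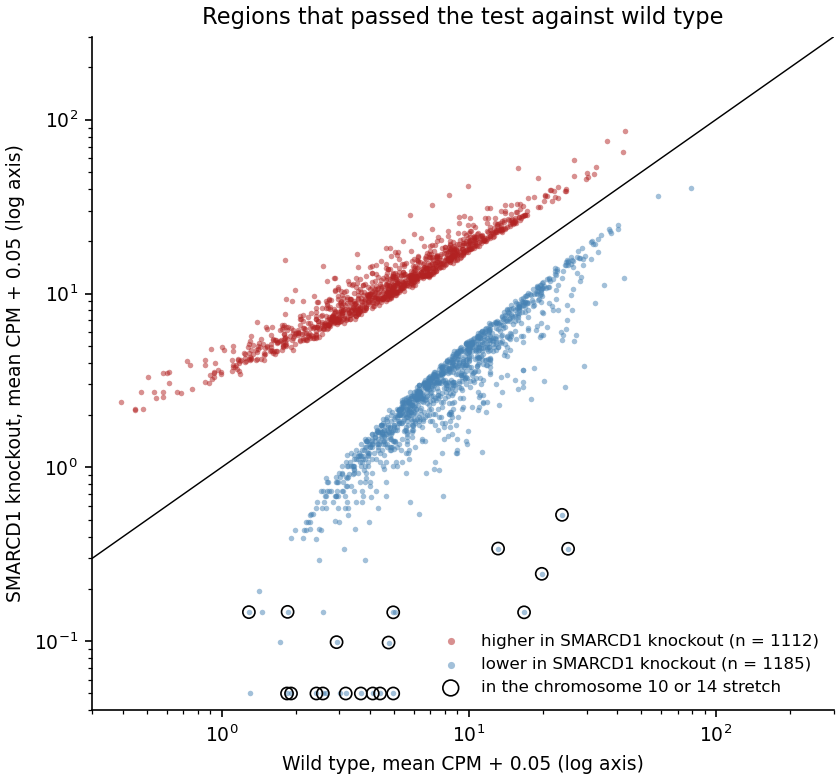
Mean accessibility of each called region in the SMARCD1 knockout (vertical) and in wild type (horizontal), as CPM plus 0.05 on log axes, 2 libraries each. The 1112 higher regions lie above the line of equality and the 1185 lower ones below it; circles mark the 19 called regions of the chromosome 10 and 14 stretches, which lie at or near the bottom.

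The largest gain was at chr6:63443519-63444775, with 14.6 and 16.4 CPM in the SMARCD1 libraries, against 2.33 and 1.2 CPM in wild type (log2 fold change 3.09 ± 0.315 SE, adjusted p = 3.51e-14). Both SMARCD1 values stood above those of SMARCD2 (2.34 and 2.36 CPM) and SMARCD3 (6.38 and 8.2 CPM). SMARCD1 ranked second of the 24 groups of its set there, behind the ARID1B clone 7 mean of 23.7 CPM. At chr20:4924973-4925728 the SMARCD1 libraries had 10.4 and 18.3 CPM, against 1.94 and 3.11 CPM in wild type (2.53 ± 0.319, adjusted p = 1.03e-09). This was the highest of the 24 group means, although the SMARCD1 replicates themselves lay far apart. The difference from SMARCD3, at 9.03 and 8.88 CPM, did not pass the test (0.68 ± 0.27, adjusted p = 0.326). At chr5:163135126-163135972 the SMARCD1 libraries had 10.0 and 10.8 CPM, against 2.33 and 1.55 CPM in wild type (2.40 ± 0.371, adjusted p = 1.32e-06). Again no other of the 24 groups was higher. Wild-type replicates 5 and 6, outside these groups, had 5.3 and 9.52 CPM, so that replicate 6 came close to the SMARCD1 libraries. All 3 regions were called in the same direction against the mean of the other clones too.

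Several of the strongest gains were as high in the SMARCD3 clone. At chr1:103573909-103574516 the SMARCD1 libraries had 24.1 and 32.2 CPM, the SMARCD3 libraries 30.3 and 26.1 CPM, and wild type 5.53 and 5.98 CPM. SMARCD2 stood with wild type there, at 2.14 and 3.93 CPM. The fitted change against wild type was 2.29 ± 0.251 (adjusted p = 1.83e-12), and the region led the list of gains against the mean of the other 22 clones (2.41, adjusted p = 3.91e-33). It is not particular to SMARCD1, since the SMARCD1 mean was the seventh of 24 and BCL7A clone 10 the highest at 34.5 CPM. At chr8:82643952-82645404 the SMARCD1 libraries had 34.2 and 39.8 CPM and the SMARCD3 libraries 38.8 and 34.7 CPM, against 8.25 and 8.37 CPM in wild type. The 2 knockouts overlapped and both stood clear of wild type. They were not alone: SMARCC1, BCL11A and BCL11B had means of 36.0, 36.5 and 37.7 CPM there, against 37.0 CPM in SMARCD1. At chrX:34775817-34776554 the SMARCD1 libraries had 34.2 and 30.6 CPM and the SMARCD3 libraries 32.9 and 26.6 CPM, against 7.28 and 6.81 CPM in wild type. The wild-type replicates 5 and 6, made with another set of libraries, stood between at 14.5 and 14.9 CPM.

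One of the 10 largest gains did not carry over to the other wild-type libraries. At chr13:65015623-65016605 the SMARCD1 libraries had 16.5 and 17.3 CPM, against 3.59 and 3.35 CPM in wild-type replicates 1 and 2 (2.27 ± 0.299, adjusted p = 4.57e-09). Wild-type replicates 5 and 6 had 18.1 and 18.9 CPM, above both SMARCD1 libraries. Another, chr5:19289426-19290205, had 6.14 and 4.44 CPM in the SMARCD1 libraries, against 0.582 and 1.91 CPM in wild type, and was not called against the other clones (0.55, adjusted p = 0.183). Wild type was the lowest of the 24 groups there. The other 2 of the 10 were chr21:42791928-42792933 and chr7:93525473-93526251, with log2 fold changes of 2.11 and 2.1.

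Some gains on the list ranked against the other clones set SMARCD1 apart from both paralogs. At chr6:142351216-142351959 the SMARCD1 libraries had 19.2 and 24.9 CPM, against 7.11 and 5.9 CPM in SMARCD2, 2.65 and 5.76 CPM in SMARCD3 and 6.31 and 5.62 CPM in wild type. No other group of the set reached these values, the next being PBRM1 clone 10 at 12.6 CPM. The region was called against the other clones (2.04, adjusted p = 1.22e-23), SMARCD2 (1.76, adjusted p = 6.62e-08) and SMARCD3 (2.39, adjusted p = 1.01e-11). At chrX:51545802-51546840 the SMARCD1 libraries had 13.5 and 15 CPM, against 3.7 and 2.75 CPM in SMARCD2, 3.14 and 3.71 CPM in SMARCD3 and 6.21 and 5.62 CPM in wild type. It was called against SMARCD2 (2.14, adjusted p = 1.48e-07) and SMARCD3 (2.06, adjusted p = 1.53e-06), and BRD9 clone 10 came close to SMARCD1, at 14 CPM. Regions chrX:33938633-33939642 and chr9:9223012-9223645 completed the leading 5, at 2.27 and 1.99 against the other clones. Neither was called against SMARCD3 (0.487, adjusted p = 0.73, and 0.95, adjusted p = 0.177). At the second, BCL7B clone 8 was higher than SMARCD1, with a mean of 16.4 CPM against 10.3 CPM.

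**Figure D2:**
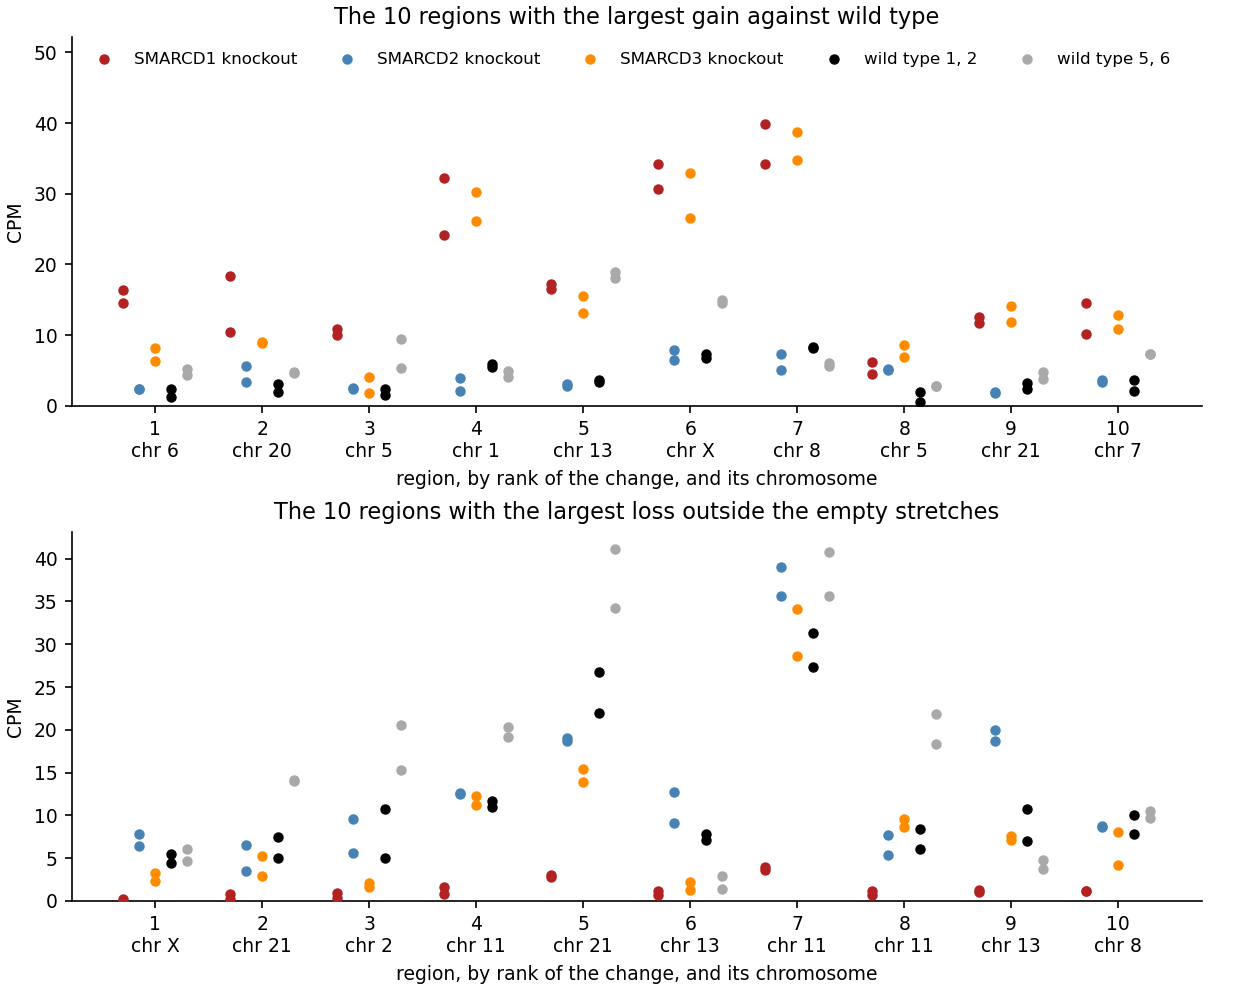
CPM (vertical, linear) of each library at the 10 regions with the largest gain and the 10 with the largest loss outside the 2 empty stretches, ordered by the size of the change against wild-type replicates 1 and 2. Each point is 1 library; SMARCD1 points stand above the black wild-type points in the upper panel and below them in the lower one, and the SMARCD3 points lie near SMARCD1 at several gains.

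Of the 10 regions with the largest loss, 7 lay in 1 stretch of chromosome 10 and 2 in 1 stretch of chromosome 14, described below. The remaining one was chrX:91764995-91765720, with 0.195 and 0 CPM in the SMARCD1 libraries, against 5.53 and 4.42 CPM in wild type. It rests on 2 reads in the SMARCD1 libraries and 94 in wild type, a ratio of wild type over SMARCD1 of 51.9 (95% exact interval 14 to 435). Every other clone had reads there, the lowest being ACTB clone 10 at 1.14 CPM.

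Further losses were named after their values were seen, to look beyond those stretches. They come from a list ranked against wild type and one ranked against the other clones, and not every member is given. After chrX:91764995-91765720, the largest against wild type was chr21:22418214-22418864. It had 0.779 and 0.193 CPM in the SMARCD1 libraries, against 5.05 and 7.41 CPM in wild type (−3.64 ± 0.485, adjusted p = 8.27e-09). At chr21:22033472-22035322 the SMARCD1 libraries had 2.73 and 2.99 CPM, against 18.7 and 19.0 CPM in SMARCD2, 15.4 and 13.9 CPM in SMARCD3 and 26.8 and 22.0 CPM in wild type (−3.09 ± 0.265 against wild type, adjusted p = 6.34e-19). Wild-type replicates 5 and 6 were higher still, at 41.1 and 34.2 CPM. The SMARCD1 mean was the third lowest of the 24, with ARID1B clone 7 at 2.4 CPM and BCL11A at 3.21 CPM close to it, so other clones were as low there. At chr11:38921176-38922672 the SMARCD1 libraries had 3.99 and 3.57 CPM, against 39.0 and 35.6 CPM in SMARCD2, 34.1 and 28.6 CPM in SMARCD3 and 31.3 and 27.3 CPM in wild type (−2.95 ± 0.232, adjusted p = 7.42e-22). The median of the other clones was 32.4 CPM, and ARID1B clone 7 was the only group below SMARCD1, at 1.67 CPM. ARID1A clones 10 and 3 were nearly as low as SMARCD1, at 5.62 and 4.94 CPM. SMARCA4 clone 4 had 11.3 CPM and SMARCA4 clone 6 had 39.5 CPM, so the loss was not particular to SMARCD1. At chr13:87776128-87776747 the SMARCD1 libraries had 1.27 and 1.06 CPM, against 20 and 18.7 CPM in SMARCD2, 7.17 and 7.61 CPM in SMARCD3 and 10.7 and 7.05 CPM in wild type. Wild-type replicates 5 and 6 were lower than replicates 1 and 2 there, at 3.73 and 4.76 CPM. SMARCD1 was the lowest of the 24 groups there. The same held at chr8:32642589-32643225, chr4:172382117-172382918 and chr15:27644207-27644967, where the SMARCD1 libraries had 0.487 to 1.17 CPM and wild type 3.23 to 10.0 CPM. Loss at chr2:77614327-77614947 and chr13:35391085-35391835 was not told apart from SMARCD3: the SMARCD3 libraries had 2.06 and 1.66 CPM at the first and 2.26 and 1.27 CPM at the second, with adjusted p = 0.174 and 0.542 for SMARCD1 against SMARCD3. At the second, wild-type replicates 5 and 6 had only 2.87 and 1.44 CPM, against 7.86 and 7.17 CPM in replicates 1 and 2. The SMARCD1 libraries had 0.682 and 1.16 CPM there. At the first, replicates 5 and 6 had 15.3 and 20.6 CPM, above replicates 1 and 2 at 10.7 and 5.02 CPM.

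The SMARCD1 libraries were almost empty over a stretch of chromosome 10. Its 11 neighbouring regions, chr10:89494704-89697913 (203 kb), held 6 and 17 reads in the SMARCD1 libraries, against 1059 and 785 in wild type. Their summed accessibility was 0.585 and 1.64 CPM in the SMARCD1 libraries and 103 and 93.8 CPM in wild type. This was the 1 stretch found by the rule of at least 5 neighbouring regions at 5% of wild type or less. The next region to the left had 0.0965 CPM in the SMARCD1 mean against 1.41 CPM in wild type, and the next to the right had 2.86 CPM in the SMARCD1 mean against 2.54 CPM in wild type. The stretch was not particular to SMARCD1: 7 clones had 1.47 CPM or less there, those of SMARCD1, SMARCD3, SMARCC1, BCL7A, BCL11A, BCL11B and PHF10. All other groups of the table, wild type included, had 98.3 CPM or more.

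A second stretch was almost empty in the SMARCD1 clone alone among the groups of the table. It was chosen after its values were seen, because 2 of its 8 regions, at 7.82% and 5.4% of wild type, lie above the threshold of 5% and split it. Its 8 regions, chr14:81166016-81290522 (125 kb), held 8 and 5 reads in the SMARCD1 libraries, against 516 and 321 in wild type. Their sum was 0.779 and 0.482 CPM in the SMARCD1 libraries and 50.1 and 38.4 CPM in wild type. The lowest of the other 27 groups was SMARCA4 clone 6 at 23.8 CPM and the highest lay at 65.0 CPM. The regions just outside had 2.52 CPM on the left and 2.95 CPM on the right in the SMARCD1 mean, against 1.64 and 2.2 CPM in wild type. At chr14:81212727-81213506 no read was counted in the SMARCD1 libraries and 91 were counted in wild type, which makes it at least 33.5-fold lower, taking a floor of 3 reads over the SMARCD1 libraries. The 2 stretches held 19 of the lower calls, and 2278 calls, 1166 of them lower, lay outside them. Whether the DNA of the stretches is missing was not tested.

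**Figure D3:**
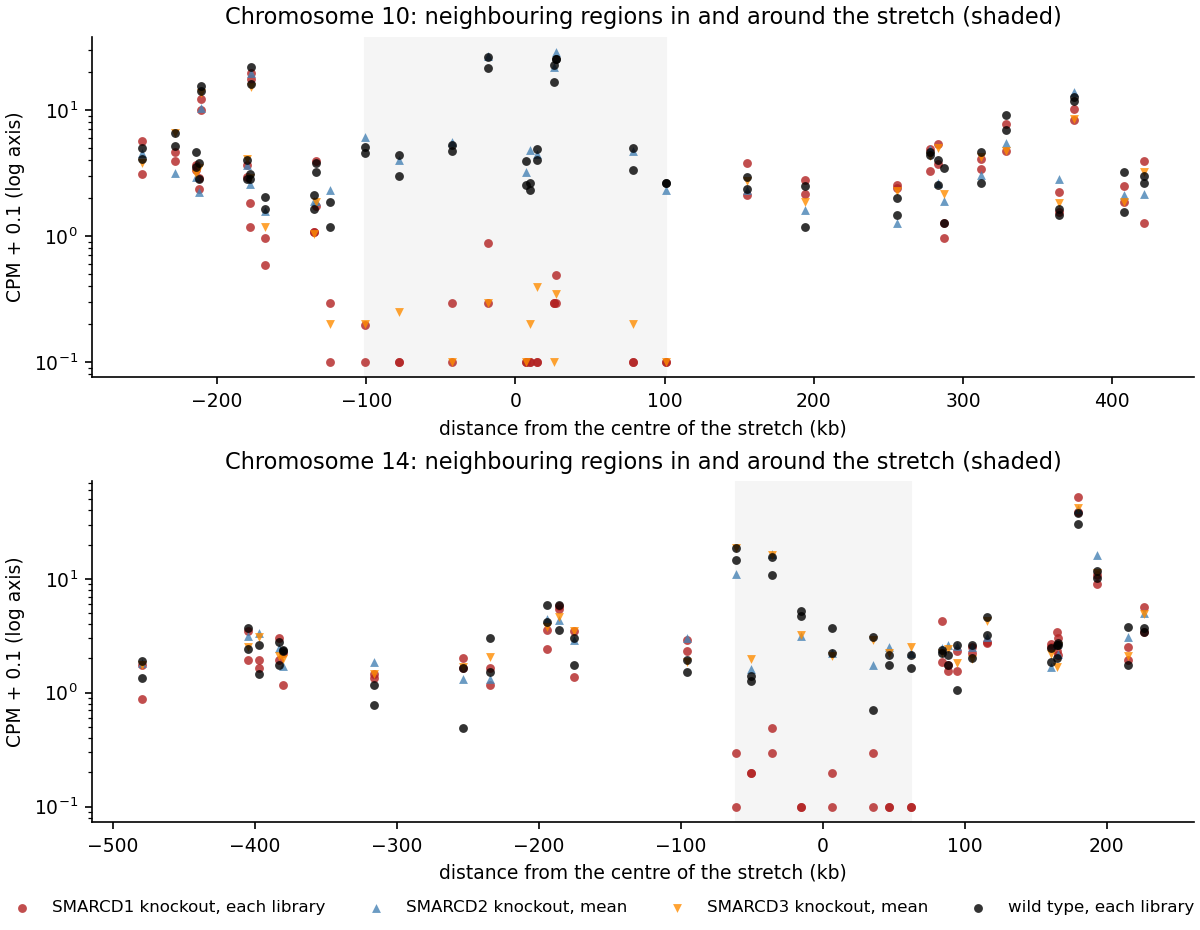
CPM plus 0.1 (log axis) of each region against its distance in kb from the centre of the chromosome 10 stretch (top) and the chromosome 14 stretch (bottom), with 12 regions on each side. SMARCD1 libraries fall to the bottom inside both shaded stretches and lie near wild type outside, except at the region next to the chromosome 10 stretch on its left; the SMARCD3 mean falls with them on chromosome 10 but stays with wild type on chromosome 14.

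Calls were spread over the genome unevenly. The highest share was on chromosome 21, with 3.41% of 1321 regions called (34 lower and 11 higher), then the X chromosome with 2.33% and chromosome 13 with 2.24%. The lowest was on chromosome 22, with 0.495%, and chromosome 19, with 0.528%. Over 588 windows of 5 Mb, the median log2 fold change against wild type had its 5th percentile at −0.11 and its 95th at 0.107. The lowest window was that of chromosome 21 from 20 to 25 Mb, with a median of −0.57 over 101 regions. In it 18 regions were called, all of them lower. There the medians were −0.58 against SMARCD3, −0.314 against SMARCD2 and −0.276 against the other clones. Over the regions of above-median accessibility in that window the median was −0.141. The next were chromosome 4 from 30 to 35 Mb (−0.375, 19 called, all lower) and the X chromosome from 90 to 95 Mb (−0.364, 7 lower and 1 higher).

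The window with the most lower calls was that of chromosome 11 from 35 to 40 Mb, with 22 called, all lower. These 22 regions spanned 2.31 Mb and summed to 39.3 and 26.5 CPM in the SMARCD1 libraries, against 195 and 192 CPM in SMARCD2, 190 and 186 CPM in SMARCD3 and 185 and 159 CPM in wild type. Among the other clones the sum was as low in ARID1A clone 10, at 38.2 CPM, with a median over the clones of 159 CPM. The window with the most higher calls was that of the X chromosome from 30 to 35 Mb, with 15 higher and 1 lower. Its 16 called regions summed to 199 and 209 CPM in the SMARCD1 libraries and to 202 and 185 CPM in SMARCD3, against 80.4 and 72.8 CPM in SMARCD2 and 79.0 and 77.9 CPM in wild type. Here SMARCD1 and SMARCD3 overlapped, BCL11A clone 10 lay with them at 201 CPM, and the median of the other clones was 73.0 CPM. The window with the highest median, chromosome 21 from 10 to 15 Mb, rests on 1 library: its 28 regions had a median of 0.486, and without SMARCD1 replicate 1 the median was 0.0352.

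Wild-type replicates 5 and 6 were not used by this comparison and belong to a different set of libraries. Both SMARCD1 libraries lay below both of them at 1028 of the 1185 lower regions (86.8%), against 24.4% of all tested regions and 28.3% of those above the median. Both lay above them at 672 of the 1112 higher regions (60.4%), against 23.7% of all and 22.7% of those above the median. The SMARCD1 libraries are shared by both comparisons, so the shares are not independent of the calls. At the higher regions the median group mean was 11.3 CPM in SMARCD1, 7.83 CPM in wild-type replicates 5 and 6 and 4.84 CPM in replicates 1 and 2. At the lower regions it was 2.91 CPM in SMARCD1, 7.26 CPM in replicates 5 and 6 and 7.81 CPM in replicates 1 and 2, so that the 2 wild-type pairs lay close together at the losses and apart at the gains.

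To find where the SMARCD1 clone differs from the rest of the knockouts without use of wild type, it was set against the mean of the other 22 clones of its set. The mean is over log2 values, so regions without reads in some other clone could fail the test. At chr10:89621574-89622544, in the chromosome 10 stretch, the SE of this comparison was 342000, and the region was not called. In this comparison 10161 regions were called (6.98%), 2716 lower (1.87%) and 7445 higher (5.12%). Of the 1185 regions lower than wild type, 861 were lower than the other clones too, which is 72.7% of the first list and 31.7% of the second. Of the 1112 higher regions, 1021 were higher than the other clones, 91.8% of the first list and 13.7% of the second. The 2 comparisons share the SMARCD1 libraries and no other. The count of 10161 rests in part on the SMARCA4, ARID1A and SMARCC1 clones: without them in the mean it was 6165. It was 5394 without SMARCD1 replicate 1 and 2835 without SMARCD1 replicate 2.

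More regions were called between the SMARCD1 and SMARCD2 clones than against wild type, and fewer between the SMARCD1 and SMARCD3 clones. Against SMARCD2, 8636 regions were called (5.93%), 4091 lower (2.81%) and 4545 higher (3.12%) in SMARCD1. Leaving out SMARCD1 replicate 2 gave 4081, SMARCD2 replicate 1 gave 4595 and SMARCD2 replicate 2 gave 4399. Against SMARCD3, 1298 were called (0.892%), 906 lower (0.623%) and 392 higher (0.269%). That count was 672 without SMARCD1 replicate 1, 587 without SMARCD1 replicate 2, 558 without SMARCD3 replicate 1 and 739 without SMARCD3 replicate 2. The largest excess over SMARCD2 was at chr10:10357128-10357973, with 7.79 and 12.3 CPM in SMARCD1 against 1.66 and 0.197 CPM in SMARCD2, and at chr18:14975922-14977265, with 14.1 and 17.9 CPM in SMARCD1 against 1.75 and 1.28 CPM in SMARCD2. Wild type was close to SMARCD1 at the second, with 10.5 and 7.41 CPM (adjusted p = 0.058 for SMARCD1 against wild type). The largest excess over SMARCD3 was at chr2:141944091-141945244, with 3.12 and 5.02 CPM in SMARCD1, no read in either SMARCD3 library and 5.34 and 5.98 CPM in wild type. SMARCD1 was at least 27.7-fold higher than SMARCD3 there, taking a floor of 3 reads over the SMARCD3 libraries. The next was chr2:142217050-142217682, with 3.22 and 1.45 CPM in SMARCD1, no read in SMARCD3 and 4.08 and 4.9 CPM in wild type. SMARCD1 was not called against wild type at either (−0.47, adjusted p = 0.62, and −0.937, adjusted p = 0.28). Both excesses thus lie where the SMARCD3 clone was empty, and not where SMARCD1 exceeded wild type. The largest shortfalls were regions of the 2 stretches, at chromosome 10 against SMARCD2 and at chromosome 14 against SMARCD3.

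The regions called against wild type were then read against each paralog. These comparisons share the SMARCD1 libraries on which the regions were called, so agreement in direction is favoured in advance. Of the 1185 lower regions, 906 (76.5%) were lower than SMARCD2 as well, against 2.81% of all regions tested. Lower than SMARCD3 were 338 (28.5%), against 0.623% of all. Of the 1112 higher regions, 831 (74.7%) were higher than SMARCD2, against 3.12% of all. Higher than SMARCD3 were 97 (8.72%), against 0.269% of all. Called in the same direction against the other clones, SMARCD2 and SMARCD3 together were 234 lower (19.7%) and 69 higher regions (6.21%). The share of all regions that meet this was not computed. SMARCD3 was also set directly against SMARCD2, a comparison that uses neither SMARCD1 nor wild-type libraries. At the higher regions the median log2 fold change of SMARCD3 over SMARCD2 was 0.73, with 451 called higher and 11 lower. That is 40.6% higher, against 3.28% of all regions tested and 5.08% of those above the median. The 11 were 0.989%, against 2.58% lower among all regions and 3.95% among those above the median. At the lower regions the median was −0.55, with 436 called lower (36.8%), against the same 2.58% and 3.95%. Called higher were 62 (5.23%), close to the 5.08% of regions above the median. Over all regions the median was −0.01.

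Set against each other clone in turn, SMARCD1 differed at 1156 to 30087 regions, with a median of 5890 over the 22 clones. The 4 clones with fewer called regions than wild type were BCL11A (1156), SMARCD3 (1298), BRD9 (1369) and BCL11B (1538). The most distant were both SMARCA4 clones (30087 and 28957), both ARID1A clones (21699 and 18426) and ARID1B clone 7 (18290), which lack the main ATPase or an ARID subunit of the canonical form. SMARCC1, another core subunit, stood apart at 14163 regions, 10665 of them higher in SMARCD1. These were chosen as comparisons after the results against wild type were known.

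The empty stretch on chromosome 10 goes with part of this order. The 6 other clones that share it gave 1156 to 14163 calls with a median of 2547.5, and the 16 clones with reads there gave 1369 to 30087 with a median of 7855. BCL11A, BCL11B and SMARCD3 share the stretch and were among the 4 nearest, BRD9 has reads there and was also near, and SMARCC1 shares it and was far. By the clone numbers in the labels, SMARCD1 (2478) stands among ACTB (2471), BCL11A (2426), BCL11B (2432), BCL7A (2434), SMARCC1 (2476) and SMARCD3 (2480). Against the mean of these 6 clones 4529 regions were called (3.11%), 1685 lower (1.16%) and 2844 higher (1.95%), and against the mean of the 16 clones with other numbers 12203 (8.39%), 3240 lower (2.23%) and 8963 higher (6.16%). Of the regions called against wild type, 563 of the 1185 lower (47.5%) and 722 of the 1112 higher (64.9%) were called in the same direction in both. All of these comparisons share the SMARCD1 libraries, so the overlap is favoured in advance. The share of all regions called in both was not computed. What the labels' numbers mean is not stated in the sources used here, and the part that shared descent of clones plays in these values was not tested.

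**Figure D4:**
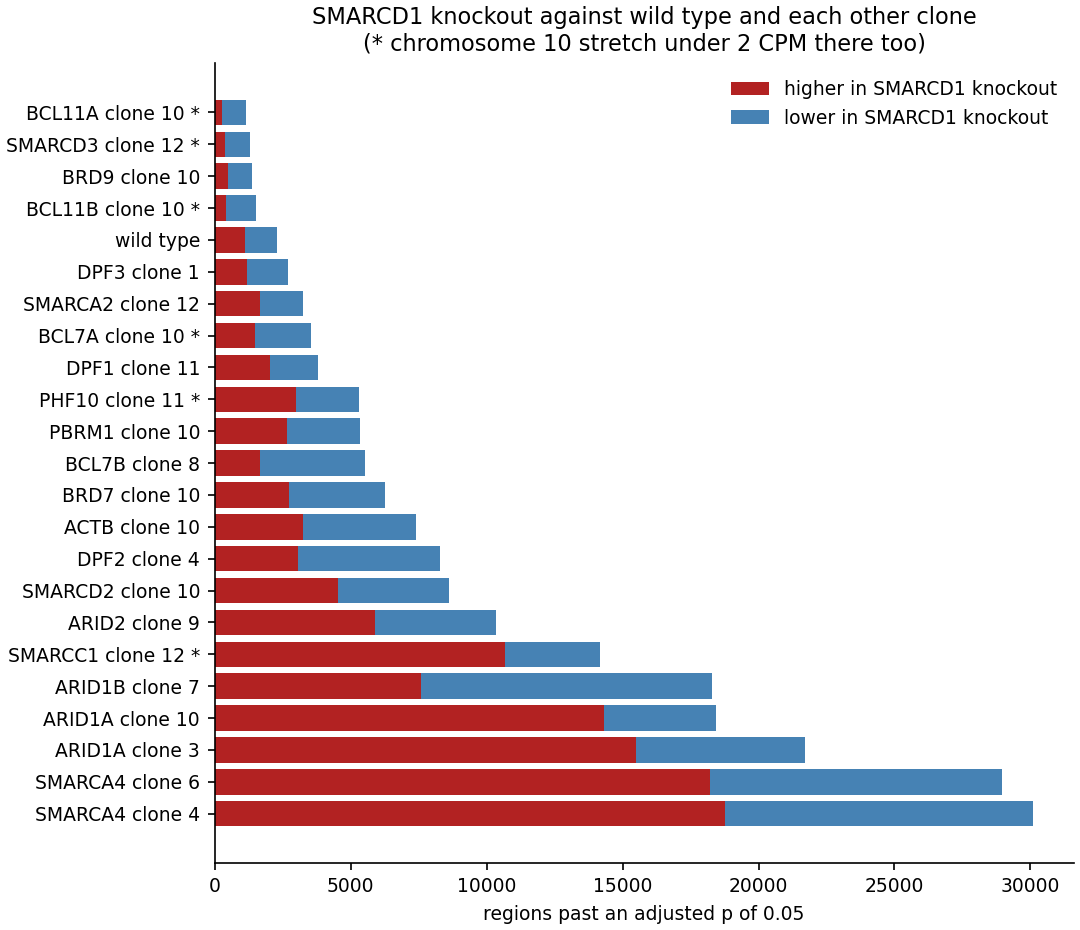
Number of regions past an adjusted p of 0.05 between the SMARCD1 clone and each other clone of its set or wild type, split by direction; bars start at 0. BCL11A, SMARCD3, BRD9 and BCL11B give fewer calls than wild type (2297), and the SMARCA4 clones give the most.

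Other clones were then read at the 1185 lower and 1112 higher regions, each against the mean of the 21 remaining clones, with SMARCD1 and wild-type libraries left out. At the higher regions 5 clones had the highest medians. BCL7B clone 8 had a median log2 fold change of 0.65 (615 called higher, 55.3%, against 11.1% of all regions), and BCL11B 0.61 (571, 51.3% against 4.65%). SMARCD3 followed at 0.61 (563, 50.6% against 4.7%), BCL11A at 0.56 (521, 46.9% against 3.99%) and BRD9 at 0.44 (366, 32.9% against 3.23%). Of all regions above the median accessibility, 14.7% were called higher in BCL7B clone 8, 7.78% in BCL11B and 7.41% in SMARCD3. For BCL11A it was 6.52%, and for BRD9 4.95%. The regions higher in SMARCD1 were lowest in clones without the ATPase or ARID1A. The medians were −0.83 and −0.81 in SMARCA4 clones 4 and 6, with 630 and 626 called lower (56.7% and 56.3%, against 13.2% and 12.3% of all regions). They were −0.65 and −0.72 in ARID1A clones 10 and 3, with 505 and 549 called lower (45.4% and 49.4%, against 8.48% and 9.42%). Of all regions above the median, 21.4% and 20.4% were called lower in SMARCA4 clones 4 and 6. In ARID1A clones 10 and 3 these shares were 15.5% and 16.7%. At the higher regions SMARCD2 stood below 0, at −0.18, with 104 called lower (9.35%, against 0.755% of all and 1.23% of those above the median). It had 27 called higher (2.43%, against 2.77% of all and 4.15% of those above the median).

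The lower regions gave a different order. Both SMARCA4 and both ARID1A clones were again low. SMARCA4 clones 4 and 6 had medians of −0.56 and −0.33, with 537 and 431 regions called lower (45.3% and 36.4%, against 13.2% and 12.3% of all regions). Called higher were 227 and 252 (19.2% and 21.3%, against 10.6% and 9.35%). Of all regions above the median, 21.4% and 20.4% were called lower and 16.5% and 14.4% higher. The share called higher in clone 4 thus lay close to that of above-median regions. ARID1A clones 10 and 3 had medians of −0.35 and −0.28, with 356 and 338 called lower (30.0% and 28.5%, against 8.48% and 9.42%). Of all regions above the median, 15.5% and 16.7% were called lower. These clones also had 124 and 170 of the regions called higher (10.5% and 14.3%, against 2.58% and 4.15% of all). Above the median that share was 3.07% and 6.73%. SMARCC1 stood at −0.30, with 305 called lower (25.7%, against 5.16% of all regions and 9.05% of those above the median). It had 93 called higher (7.85%, against 2.36% of all and 3.0% of those above the median). SMARCD3 stood at −0.16, with 237 called lower and 127 higher (20% and 10.7%, against 1.24% and 4.7%). Of all regions above the median, 2.08% were called lower and 7.41% higher. SMARCD2 lay at the other end, at 0.45, with 455 called higher (38.4%, against 2.77% of all and 4.15% of those above the median). It had 28 called lower (2.36%, against 0.755% of all and 1.23% of those above the median). DPF2 clone 4 stood with SMARCD2, at 0.49, with 533 called higher (45.0%, against 6.81% of all and 11.1% of those above the median).

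**Figure D5:**
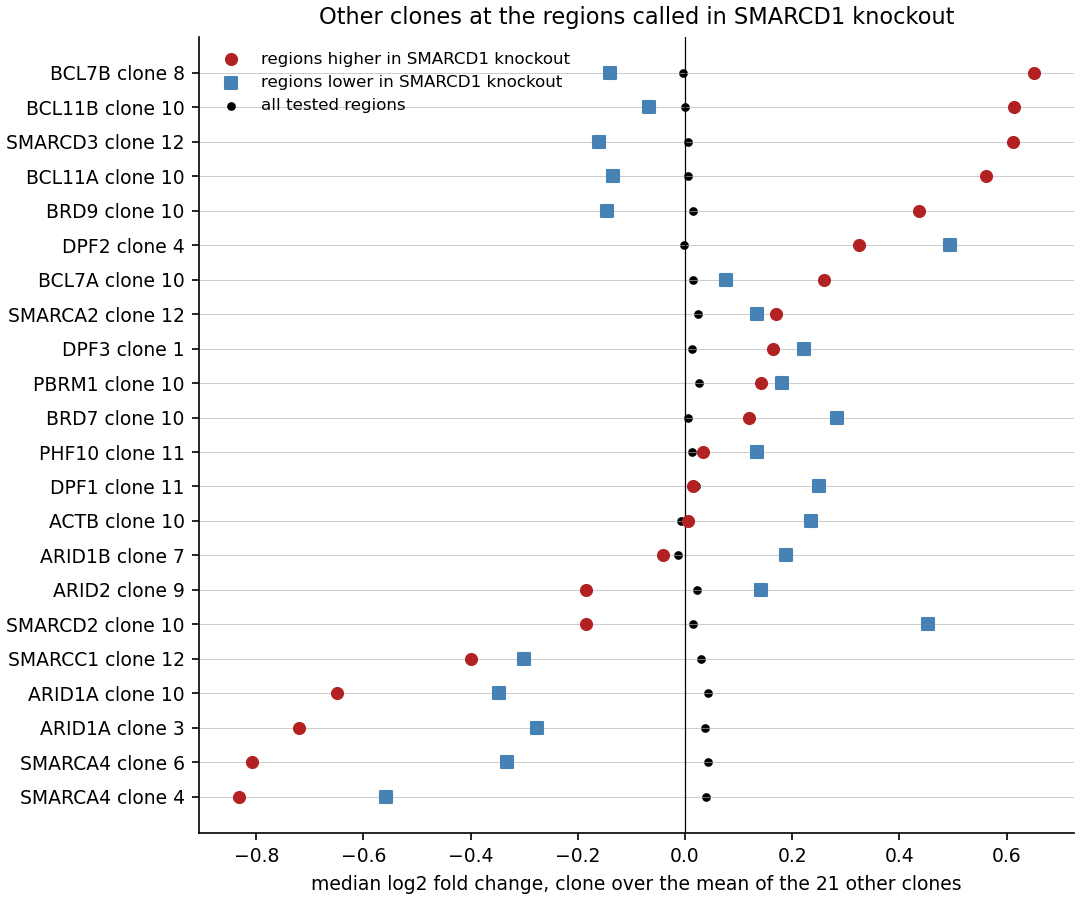
Median log2 fold change of each other clone over the mean of the 21 remaining clones, at the regions higher (red circles) and lower (blue squares) in the SMARCD1 knockout and over all tested regions (black points). SMARCD3, BCL11A, BCL11B, BCL7B and BRD9 have the highest medians at the higher regions, SMARCA4 and ARID1A clones lie below 0 at both sets, and SMARCD2 lies above 0 at the lower regions and below 0 at the higher ones.

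The knockdown libraries form a further table with wild-type controls of its own. After knockdown of SMARCA4 in wild-type cells, against the control knockdown, 256 of the 1185 lower regions were called lower and 15 higher. That is 21.6% lower, against 4.96% of all regions tested and 7.97% of those above the median. The 15 were 1.27%, against 0.773% of all and 0.915% of those above the median. Of the 1112 regions higher in SMARCD1 knockout, 262 were called lower (23.6%) and 9 higher (0.809%, against 0.773% of all). The median log2 fold changes were −0.46 at the lower, −0.62 at the higher and 0.06 over all regions. A part of the regions of each direction in the SMARCD1 clone was thus called lower after SMARCA4 knockdown, while most of each were not called. In SMARCA4 knockout cells with the control knockdown, 350 of the lower (29.5%) and 482 of the higher regions (43.3%) were called lower than wild type with the control knockdown, against 8.26% of all regions and 13.4% of those above the median. After knockdown of ARID2, a PBAF subunit, edgeR called no region in either set or in the whole table, where 6167 had an unadjusted p under 0.05.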

How the data were processed

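The authors deposited unscaled counts, the number of reads of each library in each region. The submitters' processing notes name MACS2 2.1.1.20160309, Bowtie2 2.2.4 and Picard 1.118, with hg19 as the build and no role or order. How regions were merged and counted, and whether coordinates start from 0 or 1, is not given in the sources used here. Coordinates stand as in the files. A further table, deposited by the authors with values taken as log2 by a method not given, was used for alternative tests only. A further 2 columns match no labelled sample and were not used here.

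Counts of 56 knockout-table libraries were tested with edgeR 4.0.16 (quasi-likelihood F-test, R 4.3.3), with TMM scaling, the default filter, 1 coefficient per clone or wild-type pair and 28 residual degrees of freedom. P-values are two-sided, with Benjamini-Hochberg adjustment over 145532 regions. SE is the standard error of a log2 fold change. In tests against a mean of clones, the mean is over their log2 values. limma 3.58.1 and DESeq2 1.42.0 served as alternatives. The fit was tested on simulated data. The 2 sets of libraries (23 clones with wild-type replicates 1 and 2, and 3 clones with replicates 5 and 6) are read from the form of the titles.

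Named regions passed the test, lay above the median accessibility (72766 regions) and had both SMARCD1 libraries on 1 side of both libraries of the other group. The 10 per direction with the largest change were taken against wild type, 5 against the other clones and 2 against each paralog. The members, lists and tests were chosen with earlier results of these data known. Reads carry no molecular identifiers, so intervals and floors cover counting error only.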

Additional observations from a re-analysis of the deposited data

Results flagged for a closer look

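The knockouts of SMARCD1 and of its paralogs differed by the direct test within 1 fit. SMARCD1 and SMARCD2 differed at 8636 regions, and SMARCD1 and SMARCD3 at 1298. Each gene is represented by 1 clone, so a difference between genes and one between clones cannot be told apart.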

How the results depend on the processing

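The 2297 calls against wild type came to 3924 on the authors' normalized values (3399 after each library was centred on its median) and to 5079 with both wild-type pairs as the control; the cause was not tested. Under scaling by library totals or RLE, no filter, above-median regions, DESeq2, the compared groups alone and the replicate block, the counts against wild type, the other clones, SMARCD2 and SMARCD3 stayed within 1.5 times of those reported. Leaving out 1 library gave 759 to 1405 calls against wild type, 2835 to 5394 against the other clones, 4081 to 5821 against SMARCD2 and 558 to 739 against SMARCD3. It gave 572 to 1151 regions called in the same direction against wild type and the other clones, against 1882, a lower share of 45.3 to 67.6%, and 11 to 17 regions in empty stretches. The comparison with the other clones gave 6165 calls without SMARCA4, ARID1A and SMARCC1. The lower share of 51.6% was 48.4% in above-median regions, 41.3% with the compared groups alone, 30.7% on the authors' values and 57.1% after centring, 57.1% with library totals, 59.3% with both wild-type pairs and 54.7% at 2-fold or more, so no excess of 1 direction is claimed. The lowest window, −0.57, moved to −0.141 in above-median regions and to −0.25 and −0.387 on the authors' values before and after centring, and lay between −0.759 and −0.56 with 1 library left out. The highest window lay between 0.0352 and 0.735. Of 42 named regions, 41 kept their direction and call under every alternative in which they were tested. The exception, chr5:19289426-19290205, had 1.46 with an adjusted p of 0.198 without wild-type replicate 1. Replicate numbers did not pair the samples: deviations of equal numbers in SMARCD1 and wild type correlated at −0.057, and the replicate block gave 2484, 10399, 8941 and 1366 calls. The median of the other clones in place of their mean was not run. With 2 libraries a group, small changes at regions with few reads are not resolved.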
